A study of Sparus aurata with 6 samples.

Results

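The most abundant intestinal transcripts of gilthead seabream (Sparus aurata) were described here as the 200 array targets, of 15156, with the highest mean level over 5 of the 6 arrays of the study. A target is a transcript sequence for which the array carries 1 or more oligonucleotide probes, each printed as 1 or more spots. The 200 targets made up 1.32% of all targets and held 541 of 28793 probes and 969 of 43803 spots. They were selected by their levels on the arrays of control pools 1 and 3 and of MPLE pools 1, 2 and 3, whereas the dim array of control pool 2 was not used. Level is given throughout as log2 of the processed spot signal minus the 75th percentile of its array, so that 1 unit is a doubling and 0 is the 75th percentile. The height of these levels is therefore a description with no test. The differences between the diets, tested further on, come from the same 5 arrays and control pool 2, and the mean that chose the targets held 3 MPLE and 2 control arrays.

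The arrays measured RNA from the mid-anterior intestine of juvenile seabream after 92 days on a control diet or on the same diet to which 0.1% MPLE had been added, an extract of the leaves of 2 medicinal plants, sage and lemon verbena. Both diets contained 7% fishmeal, and the mean weights in the labels were 174 g for control fish and 190 g for MPLE fish. Each diet had 3 pools, each with RNA of 4 fish that came from the 4 different tanks on that diet, and each pool was hybridised to 1 one-colour array. The extract contained ursolic acid, other triterpenes, verbascoside and polyphenols, and the comparison asks how the diets differed in intestinal gene expression. Since every pool drew on the same tanks as the other pools of its diet, the spread between pools does not hold the differences between tanks. Pooling averaged over the 4 fish of a pool, so that the variation between single fish cannot be estimated. The RNA came from whole tissue, in which more cells of a type and more RNA per cell cannot be told apart.

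In a fish intestine, absorptive enterocytes line the mucosa and take up peptides, lipids and ions, goblet cells secrete mucus, and smooth muscle, blood and immune cells lie beneath the epithelium. The most abundant messenger RNAs of animal tissues commonly encode ribosomal proteins, translation factors, cytoskeletal proteins, mitochondrial subunits and the main products of the tissue's specialised cells. Which of these the targets encode was not analysed here, because their names are those of sequence contigs and single sequence reads, and 0 of 15156 target names matched the gene table of assembly fSpaAur1.1. The tissue label could not be checked against markers of enterocytes, goblet cells, muscle, pancreas or blood for the same reason. No probe sequence was in the material used here, so none is printed. The targets are therefore described by their names, levels, probes and behaviour between pools and diets.

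The array of control pool 2 stood apart from the others. The 75th percentile of its signal was 150 units, where the other 5 arrays had 1335 to 2373 units. Spots well above background made up 43.2% on it and 71.7% to 87.6% elsewhere. No 2 arrays shared a slide, and the scan day and the position on the slide were the same for all arrays of a diet and differed between the diets. Diet therefore cannot be told apart from scan day or position. Precision is limited by the number of arrays.

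The abundant targets spanned a narrow range of high levels. Averaged over the 5 choosing arrays, their levels ran from 4.46 to 7.42 with a median of 5.47, whereas the median over all 15156 targets was -2.48. In linear terms the last of the 200 targets was 22.0-fold above the 75th percentile, the median one 44.4-fold and the brightest 171-fold, and the brightest exceeded the last by 7.80-fold. There were 14 targets at levels from 7 to 8, 63 from 6 to 7, 62 from 5 to 6 and 61 from 4 to 5. The limit fell at no gap, since the last 2 targets inside it both lay at 4.46 and the first 2 outside at 4.43 and 4.42. A level also depends on how well a probe binds its transcript, so the order is one of brightness per probe and not of molecules, and no target was tested against another.

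These few targets accounted for most of the light on each array. Holding 2.21% of the spots, they gave 57.6% of the summed signal on control pool 1, 62.4% on control pool 2 and 58.2% on control pool 3. On the MPLE arrays their share was 58.3%, 51.9% and 56.0% for pools 1, 2 and 3. MPLE pool 2 had the lowest share and control pool 2 the highest, the other 4 arrays fell between them, and the diets overlapped. The 10 brightest targets gave 6.88%, 9.64% and 7.06% of the signal in the control pools and 7.02%, 5.83% and 6.51% in the MPLE pools, again with control pool 2 highest and MPLE pool 2 lowest.

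All 969 spots were well above background on each of the 6 arrays, the dim one included. No spot was saturated on any array, and their median signal was 93193 to 111719 units on the 5 brighter arrays and 9870 on control pool 2. Between 99.2% and 100% of these spots on the 5 brighter arrays had been read from the low-gain scan and scaled up by the scanner software, against 1.08% to 2.47% of the other spots. On control pool 2 only 26.4% of them had been read in this way. The part of this difference in reading in the levels of control pool 2 was not tested.

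**Figure D1:**
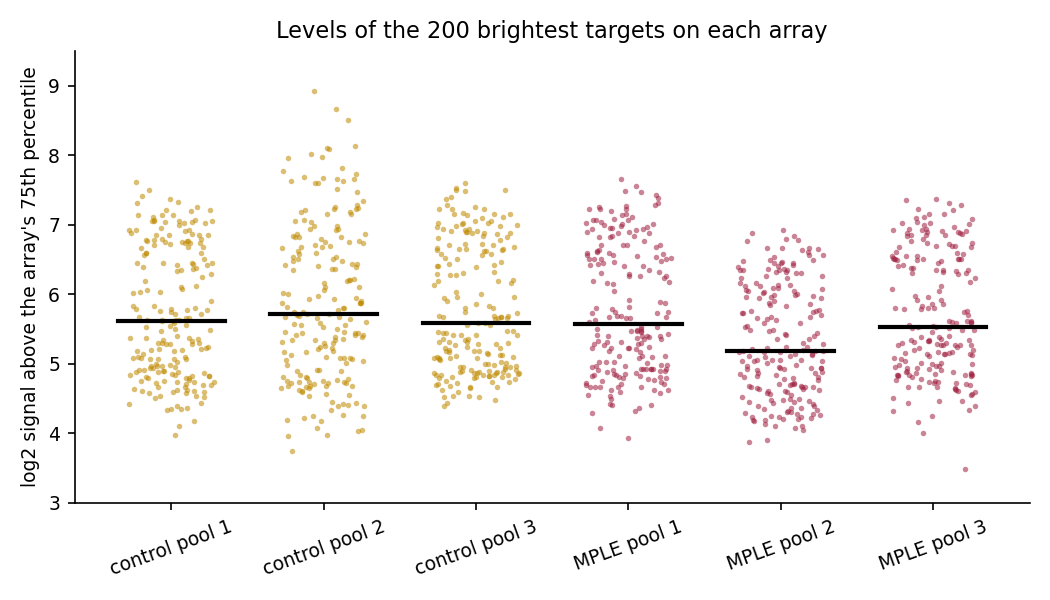
Levels of the 200 abundant targets on each array, in log2 units above the array's 75th percentile, with control and MPLE pools on the horizontal axis. The median level lies between 5.53 and 5.72 on 5 arrays and at 5.18 on MPLE pool 2, and the widest spread is that of control pool 2.

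The 10 brightest targets were all contigs, that is, sequences assembled from several reads. The brightest, Contig1496, had levels of 7.62, 8.50 and 7.60 in control pools 1, 2 and 3 and of 7.65, 6.87 and 7.36 in the MPLE pools. Its highest value was that of control pool 2 and its lowest that of MPLE pool 2, and the other 4 pools lay between 7.36 and 7.65. Its 3 probes lay within 0.033 of each other, between 7.40 and 7.43. Contig1492 measured 7.25, 7.77 and 7.49 in the control pools and 7.43, 6.83 and 7.36 in the MPLE pools, and its groups overlapped as well. Contig1008 measured 7.33, 8.10 and 7.50 against 7.49, 6.66 and 7.31, with the same pools at its extremes.

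Contig450 measured 7.31, 7.65 and 7.50 on the control diet and 7.38, 6.56 and 7.15 on the MPLE diet. Contig77 measured 7.21, 8.67 and 7.36 against 7.29, 6.76 and 7.22, so that its value in control pool 2 was more than 1 unit above both other control pools. Both targets had overlapping groups, with control pool 2 highest and MPLE pool 2 lowest. Contig104 was the exception among the 10, at 7.36, 6.54 and 7.40 on the control diet and 7.31, 6.47 and 7.20 on the MPLE diet. Its lowest values were those of both pools numbered 2, and the other 4 pools lay between 7.20 and 7.40. Contig1861, Contig112 and Contig701 were also among the 10, with mean levels of 7.08, 7.08 and 7.07 over the 5 choosing arrays, as was a contig of another name series at 7.34. That contig measured 7.50, 7.96 and 7.52 on the control diet and 7.47, 6.93 and 7.29 on the MPLE diet, without overlap. Its 3 probes gave differences (MPLE minus control) of -0.24, 0.02 and -1.08, so that most of its difference came from 1 probe.

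The set was nearly the same whichever diet chose it. The 200 brightest targets by the mean of control pools 1 and 3 and the 200 brightest by the mean of the MPLE pools shared 192 targets. Of the 200 abundant targets, 153 were among the 200 brightest on all 6 arrays and 166 on all 5 choosing arrays. On the array that took no part in the choice, control pool 2, 173 of them were among the 200 brightest and the last of them ranked 346. The lowest rank that any of them took on a single array was 406, on MPLE pool 3.

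Levels of the 200 targets correlated between arrays, across targets that share the same probes on every array and are not independent replicates. Pearson's r was 0.90 to 0.97 within a diet and 0.94 to 0.97 between diets for pairs without control pool 2. For pairs with control pool 2 it was 0.83 to 0.86. Control pools 1 and 3 had an r of 0.97 and MPLE pools 1 and 3 one of 0.96, while MPLE pool 2 gave 0.90 and 0.91 with the other MPLE pools. The order of abundance on control pool 2 and on MPLE pool 2 was thus less like that of the other pools of its diet than those were like each other.

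Assembled contigs were more frequent among the abundant targets than on the array. Contigs numbered 155 of 200 abundant targets (77.5%) and 6057 of all 15156 targets (40.0%), the others being mostly single reads. They were 56.0% of the 6265 targets well above background on all 6 arrays and 135 of the 200 targets ranked just after the abundant ones, so that the share of contigs was higher at higher levels. Within the 50 brightest targets 43 were contigs, and in the following groups of 50 targets there were 41, 36 and 35. The largest series of names, plain Contig followed by a number, gave 120 abundant targets of its 3156, whereas single reads whose names begin with cDN gave 39 of 8740.

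The number of probes differed too. Of the abundant targets 82.0% had 3 or more probes, against 44.4% of all targets. Among targets with 3 probes, 3.98% of contigs and 0.704% of reads were abundant. Among targets with 1 probe the shares were 0.420% and 0.348%. The excess of contigs was therefore seen among targets with 3 probes and was small among those with 1. Among the reads, those named cDN11 gave 12 abundant targets of 589 (2.04%), and the other 13 cDN series gave 27 of 8151 (0.331%), with at most 5 from any of them. What the series names stand for is not given in the sources used here.

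The probes of an abundant target mostly gave like levels. For the 169 abundant targets with 2 or more probes, the range between the probes of a target had a median of 0.31 units. The median range was 0.60 for 143 targets among the next 200 by level and 0.80 for 3639 targets well above background on all 6 arrays. Choosing targets by the mean of their probes selects those whose probes are all bright, so this comparison was left without a test. Every probe lay at or above the level of the last abundant target in 172 of the 200 targets. A further 46 targets had at least 1 probe at that level but a mean below it.

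In 27 abundant targets the probes differed by more than 1 unit, and in 6 by more than 2. The widest range was that of Contig1570, whose 3 probes averaged 6.04, 4.37 and 3.61. Contig1519 followed, with probes at 7.21, 7.00 and 4.78, of which the first 2 were near the top of the array and the last was near the limit of the 200. Contig2707 ranged from 4.33 to 6.43. For such targets the place in the order rests on which probes the array carries.

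**Figure D2:**
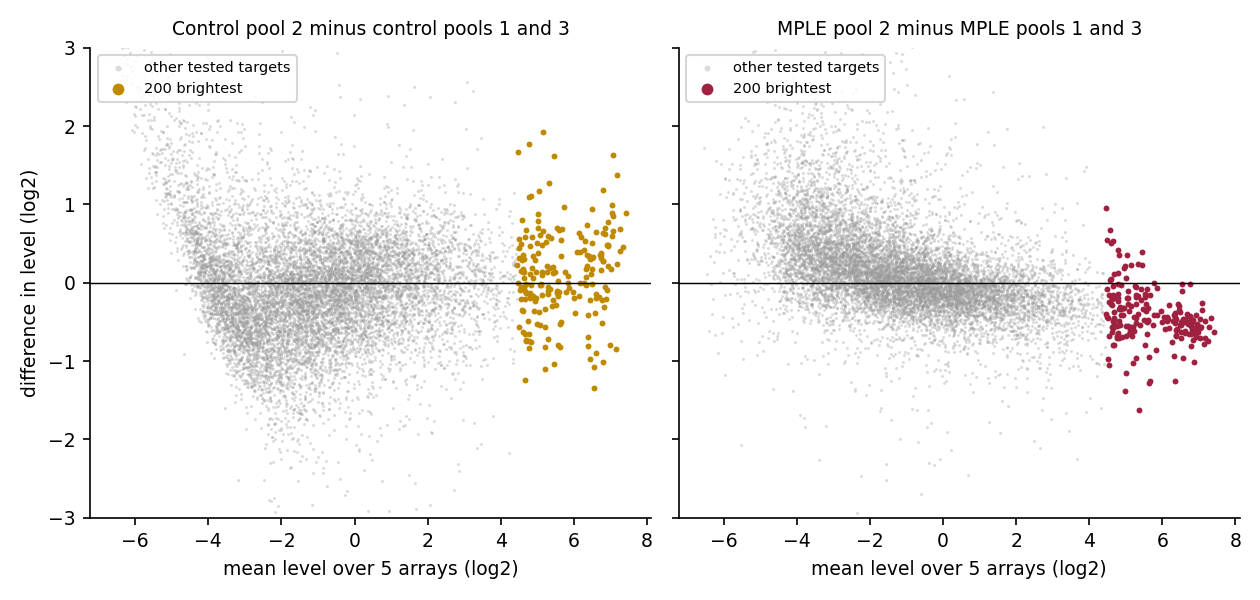
Difference between 1 pool and the mean of the other pools of its diet (log2) against mean level (log2), for control pool 2 and MPLE pool 2, with the 200 abundant targets marked among all targets tested. The vertical axis ends at 3 units either way, which leaves out 51 and 39 other targets and 0 abundant ones. The abundant targets of MPLE pool 2 lie mostly below 0, and those of control pool 2 spread to both sides.

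The pools of one diet differed by amounts that set the scale for any difference between the diets. The within-diet standard deviation of an abundant target, from the fit of both diets, had a median of 0.30 units and ran from 0.070 to 0.79. The median over all 10719 targets tested, which include dim ones, was also 0.30. Among brighter targets it was lower, at 0.27 in the next 200 by level and 0.25 in the 6265 targets well above background on all 6 arrays. A value above 0.5 was found in 22 abundant targets (11.0%) and in 20.5% of all targets tested, and 40 abundant targets were below 0.2. Control pools 1 and 3 differed by more than 1 unit in 0 of the 200 targets.

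Control pool 2 differed from the other control pools in both directions. The difference between it and the mean of control pools 1 and 3 had a median of 0.13 over the abundant targets and ran from -1.34 to 1.92, with 11 targets higher and 6 lower by more than 1 unit. With the slide divided into 24 blocks, the median offset of its brighter spots from the other arrays ran from -0.67 to 0.58, a range of 1.25, against block ranges of 0.095 to 0.25 on the other arrays. Probes of abundant targets that were printed 15 times, of which there were 8, had a median standard deviation between spots of 0.76 on control pool 2, whereas the other 5 arrays had 0.060 to 0.15. The spots of the same probe thus varied more on control pool 2 than on the other arrays. This is a spread of single spots, whereas the level of a target is a mean over its spots and probes. It is therefore not comparable with the within-diet standard deviation. The part of this spread in any single target's value was not tested.

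MPLE pool 2 differed in a more uniform way. It was the lowest of the 3 MPLE pools in 171 of the 200 abundant targets, with a median difference of -0.46 from the mean of the other MPLE pools, and was the lowest of all 6 arrays in 140. Over all targets tested the corresponding median was 0.06. The difference followed level, with medians of -0.57, -0.47, -0.34 and -0.30 in successive groups of 50 abundant targets from the brightest down. It was not confined to the abundant targets. The next 200 by level had a median of -0.32, close to that of the last 50 abundant ones. The 600 targets after those had a median of -0.23, and the 3000 after them one of -0.11. MPLE pool 2 also had the highest 75th percentile of signal, 2373 units, while the median signal of its abundant targets, 108623 units, lay within the range of the other brighter arrays. Levels are measured from that percentile, and the part of the percentile in the lower levels of this pool was not tested.

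The steadiest abundant target was Contig87, with levels of 5.74, 5.93 and 5.85 in the control pools and 5.73, 5.73 and 5.75 in the MPLE pools. Its values lay between 5.73 and 5.93 on all 6 arrays, and its within-diet standard deviation was 0.070. Contig3245 was nearly as steady, at 5.75, 5.55 and 5.59 against 5.53, 5.48 and 5.58. Contig110 measured 4.79, 4.69 and 4.92 against 4.84, 4.86 and 4.93. In all 3 targets the diets overlapped. The read cDN05P0006I17.F.ab1, described below, and a contig of another name series came next, with standard deviations of 0.094 and 0.097. In neither did the diets overlap, the read being higher and the contig lower on the MPLE diet.

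The largest within-diet standard deviation, 0.79, was that of the read cDN10P0003D11.F.ab1. It measured 5.35, 7.25 and 5.31 in the control pools and 4.92, 5.18 and 4.99 in the MPLE pools, so that 1 value, that of control pool 2, made most of its spread. The read cDN13P0004N21.F.ab1 followed the same pattern, at 5.08, 6.74 and 4.86 against 4.41, 4.93 and 4.61. So did cDN05P0001I19.F.ab1, at 4.72, 6.36 and 4.65 against 4.07, 4.70 and 4.24. Each of these reads had a single probe in 2 spots, and each was more than 1 unit higher on control pool 2 than on the other control arrays. Further abundant reads with a single probe had a like profile, such as a read at 5.58, 7.19 and 5.55 against 5.23, 5.64 and 5.26. Whether targets of different names stand for the same transcript was not analysed.

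In 119 of the 200 abundant targets control pool 2 was the highest or the lowest of the 6 arrays. It was neither in 2 further targets among the 5 most variable, Contig1603 and Contig1570. Contig1603 measured 5.37, 5.94 and 5.36 on the control diet and 6.26, 4.28 and 5.54 on the MPLE diet, so that its MPLE pools included both its highest and its lowest value. Contig1570 measured 5.34, 4.43 and 4.83 against 5.24, 4.47 and 3.48. Its lowest value was that of MPLE pool 3, and its 3 probes, although far apart in level, were all lowest there, at 4.85, 3.15 and 2.44. Its spread was thus shared by its probes.

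**Figure D3:**
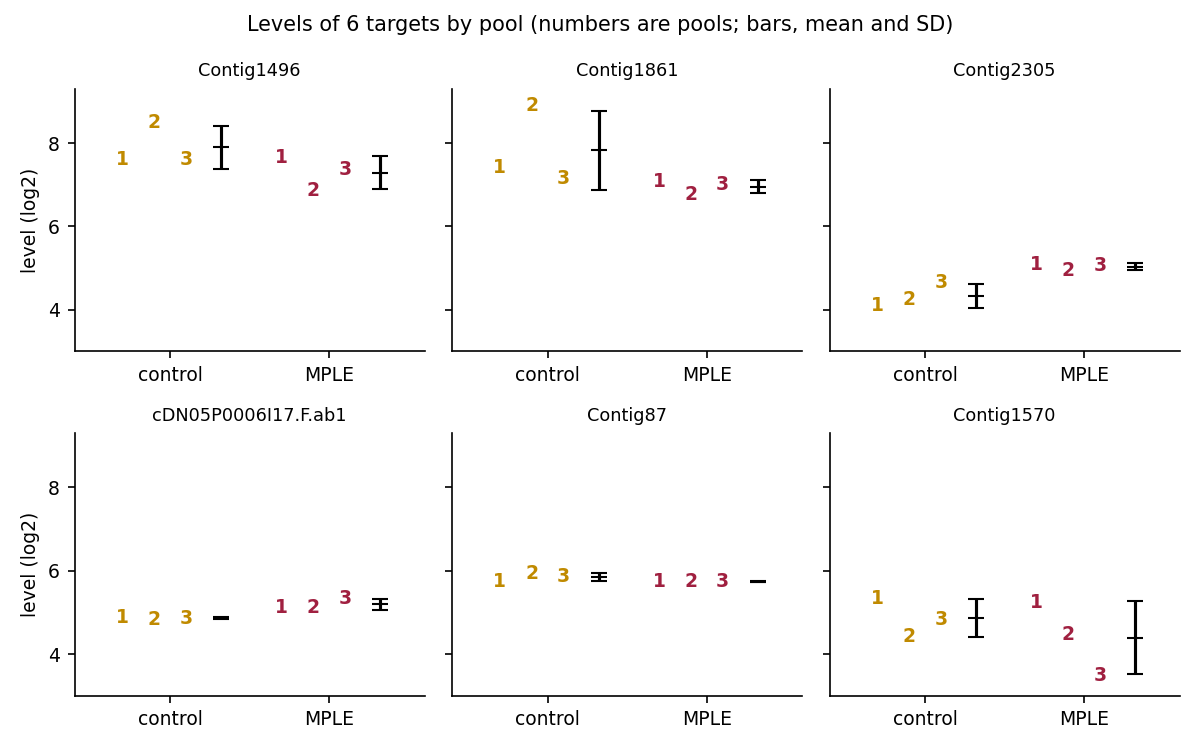
Levels of 6 abundant targets (log2 units above the array's 75th percentile) by diet. Numbers are the pools, and bars give the mean and standard deviation of the 3 pools. Contig1496 and Contig1861 are highest in control pool 2, the pools of Contig2305 and cDN05P0006I17.F.ab1 do not overlap between diets, Contig87 is level across pools and Contig1570 is lowest in MPLE pool 3.

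Between the diets, no abundant target differed after adjustment. All 200 passed the filter on dim targets and were tested with limma among 10719 targets. At an unadjusted p-value of 0.05, 4 of the 200 (2.0%) were called, 1 higher and 3 lower on the MPLE diet, while 4.45% of all targets tested were called, 2.71% higher and 1.74% lower. After Benjamini-Hochberg adjustment over all targets tested, 0 abundant targets and 0.0% of all targets were called by limma, and the smallest adjusted p was 0.828. The methods' t-test called 5 abundant targets and 5.28% of all targets before adjustment and 0 after it. Of the 6265 targets well above background on all 6 arrays, limma called 340 before adjustment, 158 higher and 182 lower. The share called among the abundant targets did not exceed the share among all targets.

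The differences were small and their intervals were not. They ran from -0.94 to 0.70 on the log2 scale (MPLE minus control), 187 of the 200 lay within 1.5-fold, 1 was higher and 12 were lower by more, and 0 exceeded 2-fold. Of all targets tested 9.55% lay past 1.5-fold, against 6.5% of the abundant ones. The standard error of a difference had a median of 0.24, and the 95% interval reached a median of 0.57 units to either side, from 0.37 for the most precise target to 1.23 for the least. For 150 of the 200 abundant targets, and for 68.0% of all targets tested, the whole 95% interval lay within 2-fold either way.

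The directions of the differences were uneven. A lower mean on the MPLE diet was found for 160 of the 200 abundant targets (80.0%) and for 45.4% of all targets tested. It was found for 113 of the next 200 by level and for 53.4% of the targets well above background on all 6 arrays. The median difference was -0.18 over the abundant targets and 0.03 over all. Probe directions were counted over probes with a value on all 6 arrays. Among the 159 abundant targets with 3 or more such probes, every one of these was lower on the MPLE diet in 72 (45.3%). Every one was higher in 11 (6.92%), against 19.2% lower and 30.2% higher of 5366 such targets in all. Among 138 such targets of the next 200, every such probe was lower in 33.3% and higher in 9.42%. The targets next in brightness thus leaned the same way, though less. The diets did not overlap in 28 abundant targets (14.0%), of which 26 were lower and 2 higher, against 13.2% of all targets, 6.08% lower and 7.1% higher. Among the 6265 targets well above background on all 6 arrays the share without overlap was 14.4%, with 501 lower and 399 higher.

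**Figure D4:**
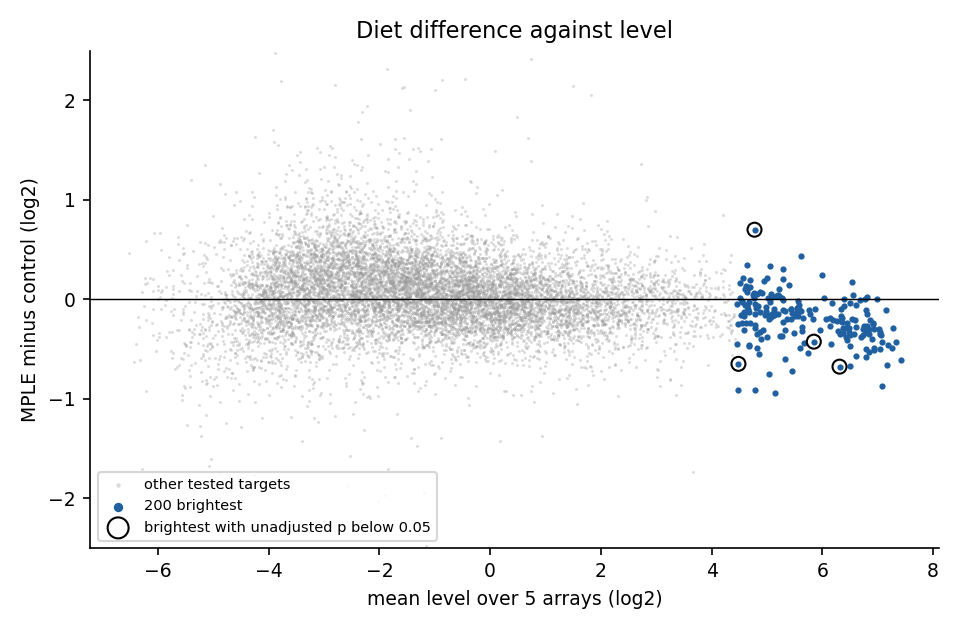
Fitted difference between the diets (MPLE minus control, log2) against mean level (log2) for the targets tested, with the 200 abundant ones marked. The vertical axis ends at 2.5 units either way, which leaves out 4 targets and 0 abundant ones, and the abundant targets lie mostly below 0 with a median of -0.18.

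The lower levels on the MPLE diet went with brightness, with MPLE pool 2 and with the scaling. The median difference was -0.31 in the 50 brightest targets, then -0.20, -0.12 and -0.08 in the following groups of 50, and -0.07 in the next 200. Without MPLE pool 2 the median over the abundant targets was -0.05, with 116 of 200 lower, and without both pools numbered 2 it was -0.02, with 113 lower. Without control pool 2 alone it was -0.17. Under quantile normalization the direction turned, with a median of 0.05 and 78 of 200 lower, and under cyclic loess the median was -0.01 with 111 lower. Scaling each array to its own median gave -0.35, where all targets tested had a median of -0.13, and scaling to the spike-in spots gave -1.09, where all had -0.87. Both of these scalings shift all targets of an array alike, and so left the abundant targets as far below the median of all targets as the 75th percentile did. The spike-in median was taken without spots that had outlier marks. Over all 320 spike-in spots the median log2 signal was 11.49, 8.81 and 11.47 in control pools 1, 2 and 3. In the MPLE pools it was 11.21, 11.61 and 11.55. It stood farthest above the 75th percentile on control pool 2 and least far on MPLE pool 2. Scaling to it was not run and would have shifted the differences upward from those at the 75th percentile, not downward. That shift would be larger in size than the median difference of -0.18, so that the direction of the set would turn. Without scaling and without control pool 2 the median over the abundant targets was -0.15, with 161 of 200 lower, where all targets tested had 0.03. With normexp on the median signals it was -0.14, with 148 lower, where all had 0.07. Among the alternatives run, the direction of the set thus turned under quantile normalization only. Its size changed with the scaling and with MPLE pool 2.

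**Figure D5:**
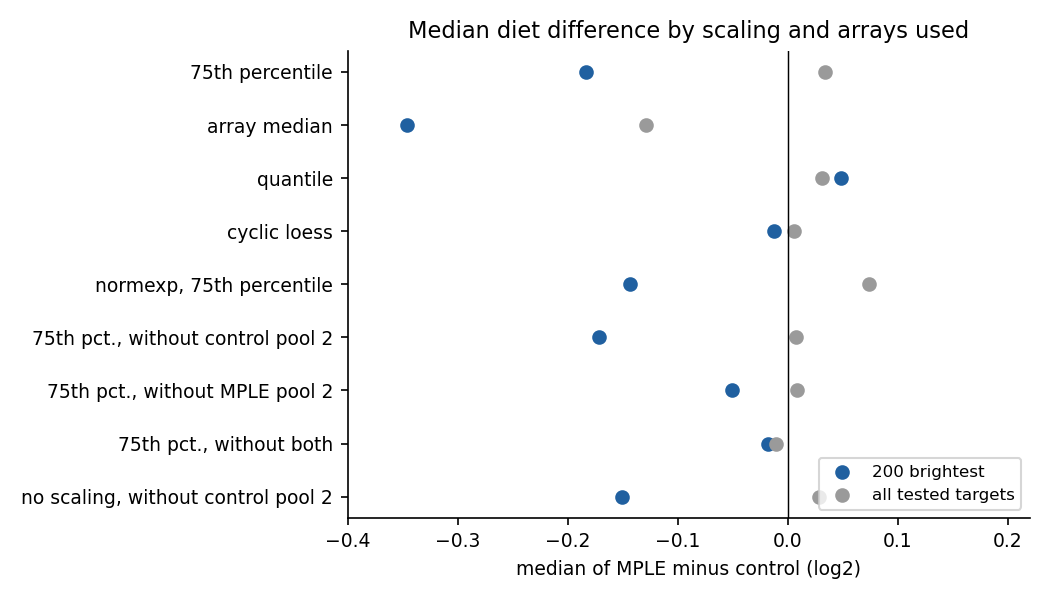
Median difference between the diets (MPLE minus control, log2) over the 200 abundant targets and over all targets tested, 1 line per way of processing. The abundant targets run from -0.35 with scaling to the array median to 0.05 with quantile normalization, and they lie at -0.05 without MPLE pool 2. Scaling to the spike-in spots without outlier marks, at -1.09, is beyond the axis and was left out.

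Contig2305, at rank 162, had the largest positive difference among the abundant targets. It measured 4.11, 4.25 and 4.66 in the control pools (mean 4.34 ± 0.29, SD, n = 3) and 5.09, 4.95 and 5.07 in the MPLE pools (mean 5.04 ± 0.081, SD, n = 3). All MPLE pools were above all control pools. The difference was 0.70 with a standard error of 0.20, and limma's test, which called it at the unadjusted limit, gave an adjusted p of 0.828. Its mean over control pools 1 and 3, 4.38, lay below the limit of 4.46 for the 200 targets, so that it was among them through its MPLE levels, and its call rests in part on the values that chose it. Its 3 probes were higher on the MPLE diet by 0.79, 0.45 and 0.86. Without control pool 2 the difference was 0.65. It was higher on the MPLE diet under all 23 alternatives except scaling to the spike-in spots without outlier marks, where it was -0.21.

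The only other abundant target whose MPLE pools all exceeded its control pools was the read cDN05P0006I17.F.ab1, at rank 133. It measured 4.88, 4.84 and 4.86 on the control diet and 5.11, 5.12 and 5.34 on the MPLE diet, and its groups did not overlap. The difference was 0.33 with a standard error of 0.16 (limma, adjusted p = 0.828), and it was not called at the unadjusted limit. Its 3 probes gave 0.41, 0.30 and 0.28. With scaling to the spike-in spots without outlier marks it was -0.58.

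The largest difference in the other direction was that of cDN10P0003D11.F.ab1, the read described above, at -0.94 with a standard error of 0.52 (limma, adjusted p = 0.828). Without control pool 2 it was -0.30. The next was Contig1861, which measured 7.40, 8.92 and 7.15 on the control diet and 7.08, 6.78 and 7.00 on the MPLE diet. Its difference was -0.87 with a standard error of 0.45 (limma, adjusted p = 0.828), and -0.33 without control pool 2. In both targets the diets did not overlap with or without that array, and the difference was smaller without it. The 3 abundant targets called lower at the unadjusted limit were other ones, with differences of -0.68, -0.65 and -0.43 and an adjusted p of 0.828 each in limma. The one at -0.65 had a mean of 4.28 on the MPLE diet, below the limit of 4.46, and so was among the 200 through its control levels.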

How the data were processed

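Each of the 6 RNA pools was hybridised to 1 one-colour array, and samples were grouped by their labels. The authors deposited the scanner output, in which values are spot intensity, not logged, background-subtracted within each array by Feature Extraction (10.7.3.1 in the file headers) and not normalized between arrays. The deposited log2 table was the same background-subtracted signal after log2, within 5.00e-09, and served as an alternative. From the processed signal, 1417 control spots and spots with outlier marks were left out, log2 was taken, each array was shifted to its 75th percentile, and spots were averaged per probe and probes per target name. The 200 targets with the highest mean over 5 arrays were kept. Targets with at least 1 probe well above background on all 3 arrays of a diet, and a value on all 6 arrays, were tested with limma 3.58.1 (lmFit, eBayes; R 4.3.3) in a model with diet alone. Calls used p below 0.05, unadjusted as the study's methods have it, and after Benjamini-Hochberg adjustment. The script was tested on simulated data. The members, lists and tests were chosen with earlier results of these data known. Named targets were to be the 10 brightest, those with the largest rises and falls without overlap between diets, those with the smallest and largest within-diet spread and with the widest range between probes. Without gene names, 2 identifiers that were higher and 2 that were lower are given, and the gene lists and cell type markers prepared by symbol could not be applied. Alternatives were other scalings, background correction, filters, probe summaries and tests, a block for the pool number, and single arrays left out.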

Additional observations from a re-analysis of the deposited data

How the results depend on the processing

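Over 23 alternatives, 0 abundant targets were called after adjustment in any, and the smallest adjusted p among them ran from 0.336 to 1.00. The count of abundant targets at an unadjusted p below 0.05 (4) was 51 with scaling to the spike-in spots, 0 with normexp on the median signals, 2 without a filter on dim targets, 7 with array weights, 11 without both pools numbered 2, 0 without scaling and without control pool 2, and 2 (without control pool 1) to 9 (without control pool 3) with single arrays left out. Of the 4 targets, 2 were among the 4 called under quantile normalization, 3 among the 51 and 2 among the 11. These counts are out of 200, and 2.0% of the abundant targets were called in the main fit. The count over all 10719 targets tested (477, 4.45%) was 1184 with the spike-in spots, 23 with normexp and 920 with array weights. It was 833 without both pools and 97 without scaling. The deposited table gave 217 of 10561, and testing with no filter on dim targets gave 361 of 15155. Dropping 1 array gave 240 (MPLE pool 3) to 652 (control pool 1), with 507 when control pool 3 was dropped. The abundant targets had the larger share called only with the spike-in spots. Adjusted calls over all targets (0) were 18 with the spike-in spots, 2 without MPLE pool 2, 1 without MPLE pool 3, 1 without both pools numbered 2, 2 without scaling and control pool 2, and 0 in the other alternatives. The median difference (-0.18) was 0.048 under quantile normalization, -1.09 with the spike-in spots and -0.27 to -0.05 with 1 array left out. The count without overlap between diets (28) was 108 with the spike-in spots (54% of abundant targets, 23.4% of all targets tested). It was 8 with normexp (4%, 3.75% of all) and 75 without both pools (37.5%, 40.7% of all). Without scaling and control pool 2 it was 63 (31.5%, 5.74% of all). With 1 array left out it ran from 39 (without MPLE pool 3, 19.5%, 19.3% of all) to 59 (without MPLE pool 1, 29.5%, 22.1% of all). The share of all targets was highest without control pool 1, at 27.1%, beside 25% of abundant targets. The median within-diet standard deviation (0.30) was 0.54 with the spike-in spots, 0.11 without both pools and 0.22 to 0.32 with 1 array left out. Of the abundant targets, 171 to 173 were among the 200 brightest on control pool 2 when any choosing array was left out. The difference of Contig2305 was -0.21 and that of cDN05P0006I17.F.ab1 -0.58 with the spike-in spots. The cause was not tested. Every value with the spike-in spots used their median without spots that had outlier marks, and the median over all of them was not used. The alternatives without both pools numbered 2, without scaling and with cyclic loess were chosen after seeing the data. Leaving out saturated spots was not run, since no spot was saturated.

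By their labels, pools of equal number share only a number, and whether they were handled together is not given. The correlations of their deviations were -0.13, 0.10 and 0.23 over all targets tested and 0.13, 0.12 and 0.22 over the abundant targets. A fit with pool number as replicate block called 5 abundant targets and 451 of all targets before adjustment. Of the 5, 2 were among the 4 called without the block.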
